A study of Mus musculus with 12 samples.

Results

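The 9 genes described here encode the transcription factors that hold hepatocytes in their mature state: *Hnf4a*, *Foxa1*, *Foxa2*, *Foxa3*, *Cebpa*, *Nr1h4* (FXR), *Nr1i2* (PXR), *Nr1i3* (CAR) and *Onecut1* (HNF6). They were taken by name, as the rows of the gene count table whose symbol equals 1 of these names. All 9 were found among the 24411 genes of the table, and all 9 were among the 13922 genes that passed a filter on low counts. Poly(A) RNA of whole liver was compared between 3 genotypes on the C57BL/6 background at 3 months of age, with 3 mice each. The cont. mice were *Atg7* flox/flox without Cre. The *Atg7*-KO mice were *Atg7* flox/flox;Alb-Cre, in which the albumin promoter drives Cre in hepatocytes. The *Atg7*-KO;p62T352A mice carried the same floxed alleles and Alb-Cre and, in addition, a homozygous knock-in of p62T352A at *Sqstm1*, the p62 gene, which the study made to stop p62 from retaining KEAP1. All mice analysed thus carried floxed *Atg7*, and mice with p62T352A alone were not analysed here.

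Hepatocyte identity rests on a network in which these factors bind each other's regulatory regions as well as the genes of liver function. HNF4A is a nuclear receptor that occupies many hepatocyte enhancers, the FOXA proteins are pioneer factors that open chromatin early in liver development, and C/EBP alpha drives genes of glucose and nitrogen metabolism. FXR senses bile acids, PXR and CAR sense drugs and other foreign compounds, and all 3 bind DNA together with the retinoid X receptor. HNF6 acts in both hepatocytes and bile duct cells.

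The targeted gene was examined first. *Atg7* was at 46.4, 44.2 and 55.4 normalized CPM (counts scaled to library size by the TMM method) in cont. mice, at 10.1, 9.57 and 12.0 in *Atg7*-KO and at 29.7, 27.4 and 29.5 in *Atg7*-KO;p62T352A mice. The 3 genotypes did not overlap, and the *Atg7*-KO;p62T352A mice lay between the other two. *Atg7* fell by 2.20 on the log2 scale in *Atg7*-KO against cont. (standard error, SE, 0.17, adjusted p = 2.55e-05 by edgeR's quasi-likelihood test) and by 0.75 in *Atg7*-KO;p62T352A against cont. (SE 0.16, adjusted p = 0.0206), so it was also higher in *Atg7*-KO;p62T352A than in *Atg7*-KO by 1.45 (SE 0.17, adjusted p = 0.000164). Which part of the *Atg7* transcript these counts come from is not known from the table, and mRNA counts measure neither the ATG7 protein nor autophagy, which the study assayed by immunoblot in both Cre genotypes and which were not analysed here.

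The libraries held 9671073 to 23285134 counts in cont., 16157275 to 18480541 in *Atg7*-KO mice and 16133626 to 17357183 in *Atg7*-KO;p62T352A mice. The TMM factors were 0.750, 0.953 and 0.942 in cont. and 1.28, 1.32 and 1.32 in *Atg7*-KO mice. With p62T352A they were 0.854, 0.823 and 0.951. They scale normalized CPM down in *Atg7*-KO mice and up in the others, so differences in level between genotypes depend on this scaling. Cont. mouse 1 stood apart from its group. Its counts differed from those of cont. mice 2 and 3 by a chi-square per degree of freedom of 196 and 305, against 52.0 between those 2 mice, 13.3 to 21.6 within *Atg7*-KO, and 55.1 to 115 among the mice with p62T352A. This measure grows with depth, and cont. mouse 1 had the most counts. The SD of the log2 CPM difference over genes of at least 10 normalized CPM does not scale with counts in that way. It was 0.972 and 1.14 between cont. mouse 1 and cont. mice 2 and 3, 0.508 between those 2, from 0.249 up to 0.321 among *Atg7*-KO mice, and 0.462 to 0.647 among those with p62T352A. The mice numbered 1 in each genotype also had 7, 28 and 9 counts of *Xist*, the RNA made from the inactive X chromosome of females, while the other 6 mice had 8578 to 18335. Calls of the 9 factors and counts over gene lists that changed without cont. mouse 1 are therefore given with and without it, and those of the 9 factors also within the 6 high-*Xist* mice.

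The promoter windows of the nuclear receptors and of *Hnf4a* are printed because these 4 genes are central to the comparisons. Each window holds the 250 bases before an annotated start in RefSeq (GRCm38.p6), read 5′ to 3′ on the strand of the gene, with capitals marking matches to the searched motifs. All 9 symbols matched, with 2 windows for *Hnf4a*, 3 for *Foxa2* and 1 for each of the others. Of the 2 *Hnf4a* windows, the one with a motif match is printed, chr2:163506607-163506856 on the plus strand. The other, chr2:163546905-163547154 on the same strand, held no match. The window of *Nr1h4* is chr10:89506659-89506908 on the minus strand, that of *Nr1i2* chr16:38294825-38295074 on the minus strand and that of *Nr1i3* chr1:171213720-171213969 on the plus strand.
Hnf4a: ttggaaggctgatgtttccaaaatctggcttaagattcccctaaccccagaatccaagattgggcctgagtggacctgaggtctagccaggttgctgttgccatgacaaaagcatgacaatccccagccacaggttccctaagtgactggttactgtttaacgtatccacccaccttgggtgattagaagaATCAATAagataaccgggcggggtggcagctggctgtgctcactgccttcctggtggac
Nr1h4: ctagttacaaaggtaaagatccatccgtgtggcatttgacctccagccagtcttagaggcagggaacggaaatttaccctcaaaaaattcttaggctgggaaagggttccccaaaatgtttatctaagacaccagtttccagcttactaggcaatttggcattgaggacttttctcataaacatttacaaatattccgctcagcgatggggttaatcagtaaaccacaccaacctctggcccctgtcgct
Nr1i2: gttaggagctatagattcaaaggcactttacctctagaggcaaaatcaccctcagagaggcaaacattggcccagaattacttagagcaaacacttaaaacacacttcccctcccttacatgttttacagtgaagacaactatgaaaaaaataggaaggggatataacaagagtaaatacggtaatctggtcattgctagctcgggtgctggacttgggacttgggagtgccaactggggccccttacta
Nr1i3: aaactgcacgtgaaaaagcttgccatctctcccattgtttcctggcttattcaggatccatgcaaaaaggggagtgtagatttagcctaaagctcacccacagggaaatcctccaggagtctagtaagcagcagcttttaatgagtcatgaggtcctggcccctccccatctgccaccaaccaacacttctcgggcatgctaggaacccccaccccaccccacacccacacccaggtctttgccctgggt

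Motifs were searched on both strands as fixed letters, and their share among all 32851 windows of the same length is given with each. The HNF6 motif ATCAATA (1.86% of all windows) occurred in the *Hnf4a* window printed above, 59 bases before the start, and in 1 window of *Foxa2*, 214 bases before the start. The FOXA motif TGTTTAC (3.17%) was found in the window of *Foxa1*, 141 bases before the start. The windows of *Foxa3*, *Cebpa*, *Nr1h4*, *Nr1i2*, *Nr1i3* and *Onecut1* held none of the letters searched. The other motifs searched were the HNF4A motif CAAAGTCCA (0.384%), the C/EBP motif TTGCNNAA (9.56%) and the D-box TTATGTAA (0.819%), and none of these matched in any window of the 9 genes.

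Levels of different genes were compared per length, as normalized CPM per kilobase of the median annotated transcript. In cont. livers the order was *Hnf4a* (210 ± 36.3 CPM per kilobase, SD, n = 3), *Nr1i3* (163 ± 102), *Nr1h4* (105 ± 35.1), *Cebpa* (94.3 ± 27.9), *Nr1i2* (47.6 ± 22.5), *Foxa3* (20.9 ± 10.1), *Foxa2* (18.3 ± 7.79), *Foxa1* (3.77 ± 0.839) and *Onecut1* (0.889 ± 0.315). Neighbours in this order from *Hnf4a* to *Foxa2* had overlapping ranges of mean ± SD, whereas *Foxa1* lay below *Foxa2*, and *Onecut1* below *Foxa1*, by more than their spread. In *Atg7*-KO livers *Hnf4a* was again first, at 160 ± 14.4 CPM per kilobase, and *Cebpa* came second, at 71.6 ± 2.04. *Nr1h4* (26.9 ± 1.58), *Nr1i3* (24.0 ± 4.27) and *Nr1i2* (20.2 ± 2.11) followed, with ranges that overlapped between neighbours. With p62T352A, *Cebpa* was again second (129 ± 15.4), ahead of *Nr1h4* (99.9 ± 11.5) and *Nr1i3* (92.2 ± 31.4). By the median transcript, the last 5 places were the same in all 3 genotypes. *Nr1i3* has a median transcript of 1386.5 bases and a longest of 2980. With the longest transcript of each gene its place is lower in all 3 genotypes, so the order depends on this choice.

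**Figure D1:**
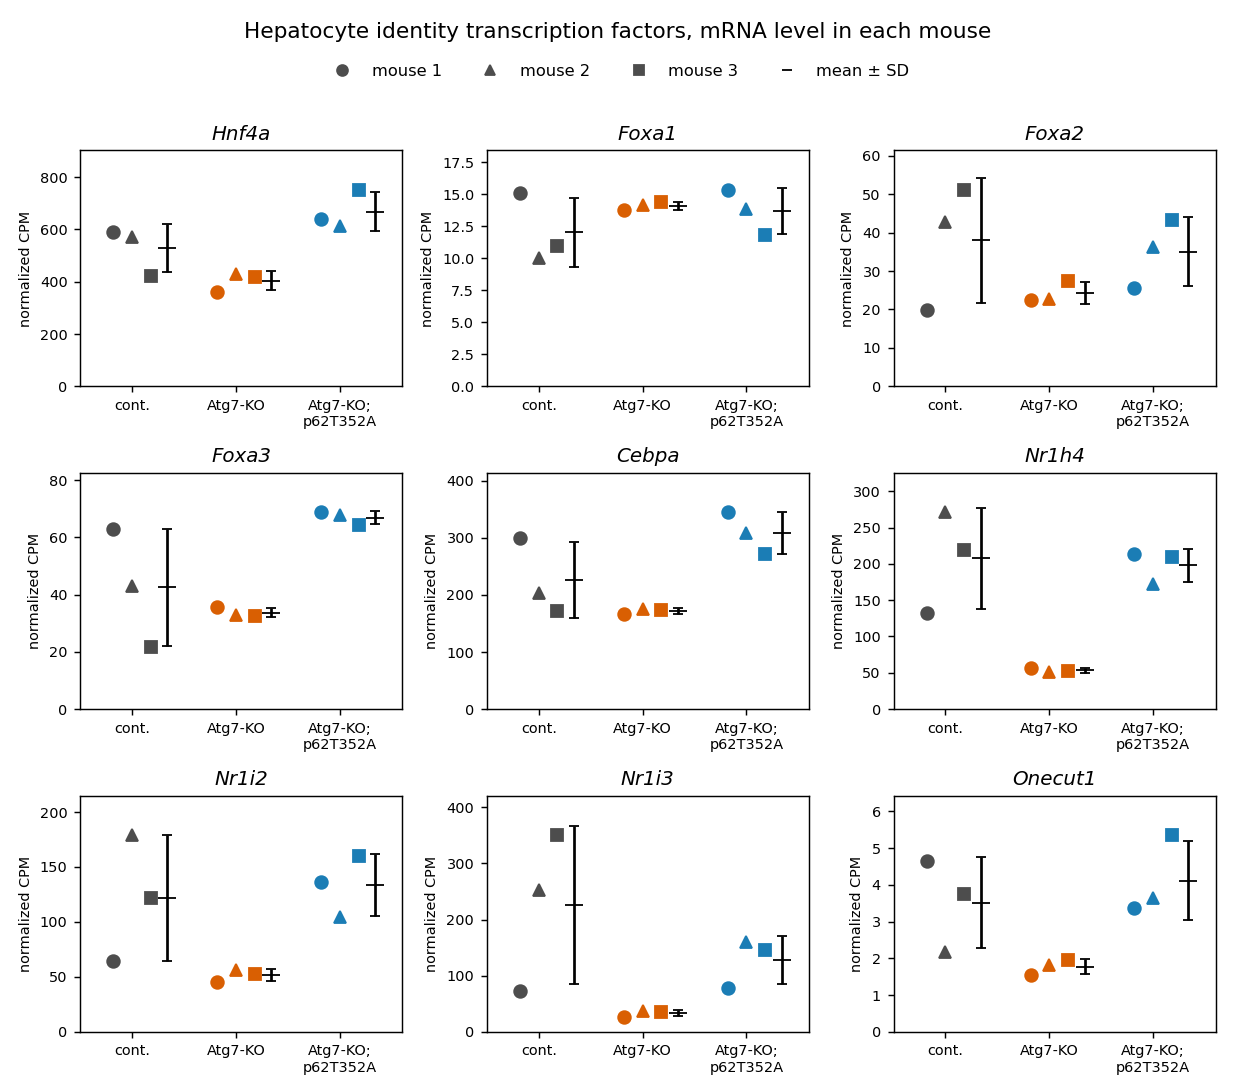
Normalized CPM (y axis, from 0, a separate scale for each gene) of the 9 hepatocyte identity factors in each of the 9 mice (x axis, genotype). Symbols give the mouse number, and bars the mean and SD of 3 mice. The *Atg7*-KO mice of *Nr1h4* sit between 50.5 and 56.7, below all other mice, whereas the mice of *Foxa1* overlap between all genotypes.

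The first comparison sets *Atg7*-KO against cont., 2 genotypes that also differ in the presence of Alb-Cre. The 3 nuclear receptors for bile acids and foreign compounds fell, as did *Onecut1*, while *Hnf4a*, *Cebpa* and the 3 *Foxa* genes did not pass the test. A gene was called when its Benjamini-Hochberg adjusted p was under 0.05 over all genes tested and its fold change over 1.5. By that rule 0 of the 9 factors were higher and 4 lower in *Atg7*-KO than in cont., against 43.7% of all genes tested called in either direction and 22.1% called lower. The median log2 fold change of the 9 was -0.64, beside -0.03 over all genes tested. The 4 called genes were also the 4 whose mice did not overlap between both genotypes in the lower direction, which held for 26.3% of all genes tested. Without cont. mouse 1, and within the 6 high-*Xist* mice, 4 factors were called lower as well, with *Foxa2* in place of *Onecut1*, against 28% and 27.3% of all genes tested in these fits. Only 2 factors were called without *Atg7*-KO mouse 1, and 2 in a test against a fold change of 1.5. The calls over all genes also went from 6080 to 4731 and 3855 in these settings. In bulk liver RNA, fewer hepatocytes and less RNA of a factor per hepatocyte cannot be told apart.

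The second comparison sets *Atg7*-KO;p62T352A against *Atg7*-KO and so asks how livers with the knock-in differed from those without it on the *Atg7* flox/flox;Alb-Cre background. The *Atg7* mRNA level was itself higher with the knock-in, and its part in these differences was not tested. Here 7 of the 9 factors were higher and 0 lower, against 51% of all genes tested called in either direction and 24.7% called higher. The exceptions were *Foxa1* and *Foxa2*. The median log2 fold change of the 9 was 0.99, beside 0.00 over all genes tested, and the same 7 did not overlap in the higher direction, as did 36.4% of all genes. Both comparisons use the same 3 *Atg7*-KO mice, so a low value in these mice enters both, with opposite sign. Within the 6 high-*Xist* mice 8 factors were higher, now with *Foxa2*, against 26.3% of all genes tested. With mice left out 5 to 8 factors were called, and 4 in a test against a fold change of 1.5. The calls over all genes were 7095, or 5652 to 8142 and 4718 in these settings.

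The third comparison sets *Atg7*-KO;p62T352A against cont. Of the 9 factors 0 were called, against 11.6% of all genes tested. Without adjustment 0 had a p under 0.05 in edgeR's quasi-likelihood test, and DESeq2 also called 0. The median log2 fold change was 0.18. *Hnf4a* and *Foxa3* had no overlap in the higher direction, as did 15.5% of all genes tested. Without cont. mouse 1, however, 3 factors were called in this comparison: *Foxa3* and *Cebpa* were higher and *Nr1i3* lower. The share of all genes tested that was called rose as well, to 22.8%. The same 3 were called within the 6 high-*Xist* mice, against 21.2% of all genes. With *Xist* as a term in the fit over all 9 mice, 4, 7 and 0 factors were called in the 3 comparisons, against 44.6%, 52.5% and 12.1% of all genes tested.

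**Figure D2:**
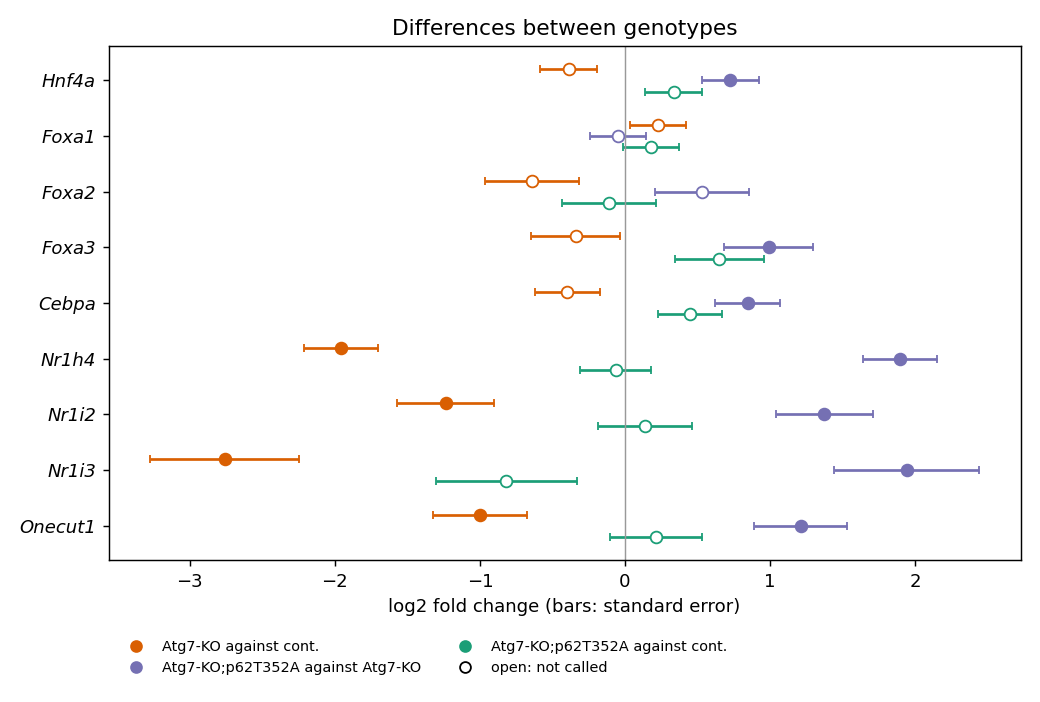
Log2 fold change (x axis) of each identity factor (y axis) in the 3 comparisons, with the SE as bars. Filled points were called and open points were not. The points of *Nr1h4* sit at -1.96, 1.90 and -0.06, and those of *Foxa1* between -0.05 and 0.22.

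*Hnf4a* was at 590, 573 and 424 normalized CPM in cont., at 363, 431 and 419 in *Atg7*-KO and at 639, 614 and 752 in *Atg7*-KO;p62T352A mice. Cont. and *Atg7*-KO overlapped through cont. mouse 3, and every *Atg7*-KO;p62T352A mouse lay above all others in these TMM-scaled levels. The difference of *Atg7*-KO from cont. was -0.39 on the log2 scale (SE 0.20, adjusted p = 0.131, edgeR). *Atg7*-KO;p62T352A mice were higher than *Atg7*-KO by 0.73 (SE 0.20, adjusted p = 0.0119), and against cont. the difference was 0.34 (SE 0.20, adjusted p = 0.296). The call against *Atg7*-KO was lost without *Atg7*-KO mouse 1, at 0.65 (adjusted p = 0.0579).

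*Cebpa*, which encodes the C/EBP factor of mature hepatocytes, followed a similar course. It was at 301, 204 and 172 normalized CPM in cont., at 166, 175 and 173 in *Atg7*-KO and at 345, 308 and 271 in *Atg7*-KO;p62T352A mice. The *Atg7*-KO mice were close together and overlapped with cont. mouse 3 only, and the *Atg7*-KO;p62T352A mice were above all others apart from cont. mouse 1, which lay among them. The log2 difference was -0.40 in *Atg7*-KO against cont. (SE 0.22, adjusted p = 0.168, edgeR) and 0.85 in *Atg7*-KO;p62T352A against *Atg7*-KO (SE 0.22, adjusted p = 0.0104). The latter call was lost with offsets for transcript length and GC content, at 0.59 (adjusted p = 0.158). Against cont. it was 0.45 (SE 0.22, adjusted p = 0.218), which became 0.71 without cont. mouse 1 (adjusted p = 0.0114). An antisense gene, *Gm45091*, overlaps *Cebpa* exons by 51 bases, and whether the counting used strand is not stated.

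Of the 3 pioneer factor genes, only *Foxa3* was called by the rule above with all mice included. Differences between the 3 genes were not tested. *Foxa1* was at 15.1, 10.0 and 11.0 normalized CPM in cont., at 13.8, 14.1 and 14.4 in *Atg7*-KO and at 15.4, 13.9 and 11.8 in *Atg7*-KO;p62T352A mice. The genotypes overlapped throughout, and the log2 differences were 0.22 (SE 0.19), -0.05 (SE 0.19) and 0.18 (SE 0.19) in the 3 comparisons, with edgeR adjusted p of 0.366, 0.855 and 0.593. *Foxa2* was at 19.9, 42.7 and 51.1 normalized CPM in cont., at 22.6, 22.6 and 27.5 in *Atg7*-KO and at 25.7, 36.1 and 43.3 in *Atg7*-KO;p62T352A mice. Cont. mouse 1 was the lowest of the 9, which placed it with the *Atg7*-KO mice. The log2 difference of *Foxa2* in *Atg7*-KO against cont. was -0.64 (SE 0.33, adjusted p = 0.131), and without cont. mouse 1 it was -0.95 and called (adjusted p = 0.00301, edgeR). With p62T352A it differed by 0.53 against *Atg7*-KO (SE 0.32, adjusted p = 0.188) and by -0.11 against cont. (SE 0.32, adjusted p = 0.865).

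*Foxa3* was at 62.7, 43.0 and 21.8 normalized CPM in cont., at 35.5, 32.9 and 32.7 in *Atg7*-KO and at 68.7, 67.7 and 64.4 in *Atg7*-KO;p62T352A mice. The cont. mice spread over a wide range that enclosed the *Atg7*-KO mice, and the *Atg7*-KO;p62T352A mice were above all others. In *Atg7*-KO;p62T352A against *Atg7*-KO the log2 difference was 0.99 (SE 0.31, adjusted p = 0.0216, edgeR), a call that was lost without any one of the *Atg7*-KO mice and without *Atg7*-KO;p62T352A mouse 1 or 2, at 0.97 to 1.03 (adjusted p = 0.052 to 0.0689), and also with the length and GC offsets, at 0.85 (adjusted p = 0.0723). Against cont., *Atg7*-KO differed by -0.34 (SE 0.31, adjusted p = 0.387) and *Atg7*-KO;p62T352A by 0.65 (SE 0.31, adjusted p = 0.198). Without cont. mouse 1 the former was 0.052, without a call, and the latter 1.05 (adjusted p = 0.0123). Without cont. mouse 3, *Foxa3* was called lower in *Atg7*-KO against cont. (-0.66, adjusted p = 0.0241).

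Summed per kilobase, *Foxa2* and *Foxa3* made up most of the *Foxa* mRNA. The share of *Foxa3* was 68.2%, 47.0% and 27.5% in cont., 53.4%, 51.3% and 47.4% in *Atg7*-KO and 66.2%, 60.4% and 56.2% in *Atg7*-KO;p62T352A mice. That of *Foxa1* was 10.5%, 6.99% and 8.87% in cont., 13.2%, 14.1% and 13.4% in *Atg7*-KO and 9.44%, 7.90% and 6.58% in *Atg7*-KO;p62T352A mice. The *Foxa1* share was thus highest in the 3 *Atg7*-KO mice, which did not overlap with the others, although its own level was not called.

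*Nr1h4*, which encodes the bile acid receptor FXR, was at 133, 271 and 219 normalized CPM in cont., at 56.7, 50.5 and 52.8 in *Atg7*-KO and at 214, 172 and 209 in *Atg7*-KO;p62T352A mice. The *Atg7*-KO mice were far below all others and close together, and the remaining genotypes overlapped. In *Atg7*-KO against cont. *Nr1h4* fell by 1.96 on the log2 scale (SE 0.25, adjusted p = 0.000331, edgeR), and in *Atg7*-KO;p62T352A against *Atg7*-KO it was higher by 1.90 (SE 0.25, adjusted p = 0.000339). The difference between *Atg7*-KO;p62T352A and cont. was -0.06 (SE 0.25, adjusted p = 0.897). Both calls held in 22 of 22 alternative settings.

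*Nr1i2*, which encodes PXR, the receptor that induces *Cyp3a* genes on exposure to foreign compounds, was at 64.3, 179 and 121 normalized CPM in cont., at 45.7, 56.2 and 52.9 in *Atg7*-KO and at 137, 104 and 160 in *Atg7*-KO;p62T352A mice. Cont. mouse 1 was the lowest outside *Atg7*-KO and only slightly above these mice. *Nr1i2* fell by 1.24 in *Atg7*-KO against cont. (log2, SE 0.33, adjusted p = 0.0131, edgeR) and was higher by 1.37 in *Atg7*-KO;p62T352A against *Atg7*-KO (SE 0.33, adjusted p = 0.00684). *Atg7*-KO;p62T352A and cont. differed by 0.14 (SE 0.33, adjusted p = 0.826). The fall was not called without *Atg7*-KO mouse 1 (-1.16, adjusted p = 0.0535).

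*Nr1i3* encodes CAR, a receptor that acts on *Cyp2b* genes. Its level was 72.9, 253 and 351 normalized CPM in cont., 26.6, 37.8 and 35.4 in *Atg7*-KO and 78.3, 159 and 146 in *Atg7*-KO;p62T352A mice. Mouse 1 was the lowest of each genotype, and the *Atg7*-KO mice were below all others. *Nr1i3* fell by 2.76 in *Atg7*-KO against cont. (log2, SE 0.51, adjusted p = 0.00224, edgeR) and was higher by 1.94 in *Atg7*-KO;p62T352A against *Atg7*-KO (SE 0.50, adjusted p = 0.00917). Against cont., *Atg7*-KO;p62T352A differed by -0.82 (SE 0.48, adjusted p = 0.304), which was -1.24 without cont. mouse 1 (adjusted p = 0.0134) and -0.98 within the 6 high-*Xist* mice (adjusted p = 0.0167). Within those mice *Nr1i3* fell by 3.04 in *Atg7*-KO against cont. (adjusted p = 3.89e-05).

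The value of *Nr1i3* carries an uncertainty of counting. The gene lies at chr1:171213970-171220701 on the plus strand of GRCm38 (GENCODE vM21) and overlaps *Tomm40l*, a gene of the opposite strand, by 3304 exon bases. Of its 75-base transcript stretches, the length of a read, 58.1% occur in *Tomm40l* as well, and 37.5% to 79.5% of those of single transcripts. *Tomm40l* was at 51.6, 209 and 253 normalized CPM in cont., at 19.7, 21.3 and 21.8 in *Atg7*-KO and at 92.3, 118 and 120 in *Atg7*-KO;p62T352A mice. It thus had nearly the same order of mice as *Nr1i3*, and without a stated strand setting reads from the shared stretches cannot be assigned to either gene.

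*Onecut1* was the least abundant of the 9, with 23 to 82 counts in a mouse. It was at 4.64, 2.17 and 3.74 normalized CPM in cont., at 1.55, 1.81 and 1.96 in *Atg7*-KO and at 3.36, 3.64 and 5.35 in *Atg7*-KO;p62T352A mice. The *Atg7*-KO mice were the 3 lowest, with cont. mouse 2 just above them. *Onecut1* fell by 1.00 in *Atg7*-KO against cont. (log2, SE 0.32, adjusted p = 0.0303, edgeR), a call that was lost in 8 of 22 alternative settings, among them without cont. mouse 1, without cont. mouse 3 and without any one of the *Atg7*-KO mice, at -1.07 to -0.72 (adjusted p = 0.0624 to 0.101). It was higher by 1.21 in *Atg7*-KO;p62T352A against *Atg7*-KO (SE 0.32, adjusted p = 0.0105), which held in 22 of 22. Of its 75-base stretches, 52% also occur in *Gm20649*, a lincRNA of the same strand. *Onecut2*, its paralog, was at 76.9, 219 and 252 normalized CPM in cont. and 58.0, 66.7 and 65.0 in *Atg7*-KO (log2 difference -1.53, adjusted p = 0.0084), and at 350, 284 and 389 in *Atg7*-KO;p62T352A mice.

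The patterns of the 9 factors over the 9 mice were then compared with each other. Likeness was measured as the root mean square difference of log2 CPM after centring each gene on its mean. The closest pair was *Hnf4a* and *Cebpa* (0.205), followed by *Foxa3* and *Cebpa* (0.246), *Hnf4a* and *Foxa3* (0.332) and *Nr1h4* and *Nr1i2* (0.369). *Foxa1* and *Nr1i3* were the least alike (1.39). Among all tested genes with a mean of at least 10 normalized CPM, the nearest to *Hnf4a* were *Ythdf1* (0.100) and *Eif3a* (0.113), and those to *Cebpa* were *Mrpl49* (0.0732) and *Mlh3* (0.0794). *Nr1h4* was nearest to *Coq10a* (0.0859) and *Ftcd* (0.171), *Nr1i2* to *Hnrnph1* (0.131) and *Trmt1l* (0.134), and *Nr1i3* to *Dgka* (0.281) and to the overlapping *Tomm40l* (0.283). For *Foxa1* they were *Vac14* (0.0721) and *Snx3* (0.0775), for *Foxa2* *Arhgef26* (0.152) and *Tbc1d17* (0.161), for *Foxa3* *Ormdl2* (0.163) and *Npm3* (0.173), and *Tfb2m* (0.257) was among those of *Onecut1*. These distances are a description over 9 mice.

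The genes that the factors are known to regulate were then examined from lists of textbook targets, some of which share genes. Of 13 HNF4A targets, 0 were higher and 9 lower in *Atg7*-KO against cont., 8 were higher and 0 lower in *Atg7*-KO;p62T352A against *Atg7*-KO, and 0 were called against cont., or 2 higher and 0 lower without cont. mouse 1. The median log2 fold change was -1.49, 1.34 and -0.20 in these comparisons. *Apoa2*, an apolipoprotein of high-density lipoprotein, fell by 2.71 in *Atg7*-KO (adjusted p = 0.000269, edgeR), and *Tat*, the first enzyme of tyrosine breakdown, fell by 2.38 (adjusted p = 0.000111). *Apob*, *F9*, *Cyp8b1* and *Cyp2d9* were not called. *Hnf4a* itself, at -0.39, was not called either, and whether these targets differed more than *Hnf4a* was not tested.

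Of 8 C/EBP alpha targets, 0 were higher and 6 lower in *Atg7*-KO against cont., and 5 were higher and 0 lower with p62T352A against *Atg7*-KO. *G6pc*, the enzyme that releases glucose from the liver, fell by 2.26 (adjusted p = 0.00196, edgeR), and *Pck1*, an enzyme of gluconeogenesis, fell by 2.08 (adjusted p = 0.000223). *Cps1*, the first enzyme of the urea cycle, fell by 1.56 in *Atg7*-KO (adjusted p = 0.00192). It was the only one of the 8 called lower in *Atg7*-KO;p62T352A against cont., at 1439, 1536 and 1323 normalized CPM against 4730.5, 2522 and 2401, where it fell by 1.17 (adjusted p = 0.028), a call that was lost when any 1 of the 6 mice with Cre was left out. There, 2 of the 8 were called lower without cont. mouse 1.

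Of 7 FOXA targets, 1 was higher and 5 lower in *Atg7*-KO against cont., while 4 were higher and 1 lower in *Atg7*-KO;p62T352A against *Atg7*-KO. The one called in the opposite direction was *Afp*, the fetal albumin-like protein of the immature liver. *Afp* was at 1.38, 0.662 and 1.54 normalized CPM in cont., at 30.1, 24.2 and 36.3 in *Atg7*-KO and at 1.36, 1.40 and 1.37 in *Atg7*-KO;p62T352A mice. *Atg7*-KO mice stood far above the others, which overlapped, with a log2 difference of 4.65 against cont. (adjusted p = 1.38e-05, edgeR) and of -4.45 with p62T352A against *Atg7*-KO (adjusted p = 1.91e-05). *Igfbp1*, a hepatocyte protein that binds insulin-like growth factors, was not called but had the same signs as *Afp*, at 0.74 against cont. (adjusted p = 0.368) and -1.47 with p62T352A against *Atg7*-KO (adjusted p = 0.0801). Without cont. mouse 3, 2 of the 7 were called higher in *Atg7*-KO. *Alb* fell by 1.26 in *Atg7*-KO against cont. (adjusted p = 0.00959). The *Alb* promoter also drives the Cre of both knockout genotypes.

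FXR targets were mixed. Of 9 listed genes 8 could be tested, since *Slc51a* had 0 counts in all mice, and 1 was higher and 3 lower in *Atg7*-KO against cont., 3 were higher and 1 lower in *Atg7*-KO;p62T352A against *Atg7*-KO, and 2 were higher and 1 lower against cont. Over all genes tested, 43.7%, 51% and 11.6% were called in these comparisons. *Abcb11*, the canalicular bile salt export pump, was at 844, 1020 and 972 normalized CPM in cont., at 200, 203 and 155 in *Atg7*-KO and at 669, 666 and 688 in *Atg7*-KO;p62T352A mice. Its 3 genotypes did not overlap. It fell by 2.34 in *Atg7*-KO (adjusted p = 3.39e-05, edgeR) and was higher by 1.86 with p62T352A against *Atg7*-KO (adjusted p = 9.7e-05). *Slc51b*, a basolateral bile acid transporter that FXR induces, was higher in *Atg7*-KO by 2.84 (adjusted p = 0.00486), from 1 to 4 counts in cont. mice to 32 to 44. With 7, 29 and 12 counts in *Atg7*-KO;p62T352A mice it was also called higher there against cont. (2.32, adjusted p = 0.0458), while the difference from *Atg7*-KO was -0.53 (adjusted p = 0.376). *Nr0b2*, the repressor SHP that FXR induces, was at 68.1, 81.7 and 51.9 normalized CPM in cont., at 34.6, 46.4 and 46.8 in *Atg7*-KO and at 135, 182 and 108 in *Atg7*-KO;p62T352A mice. It was called higher in the latter against cont., by 1.07 (adjusted p = 0.0256), although *Nr1h4* was not. This call and that of *Slc51b* in the same comparison were lost without cont. mouse 2 or 3, among others. *Cyp7a1*, the rate-limiting enzyme of bile acid synthesis that FXR signalling represses, fell by 1.95 in *Atg7*-KO (adjusted p = 0.0176). *Abcc2*, a canalicular exporter, was not called in *Atg7*-KO (0.20) but fell by 1.55 in *Atg7*-KO;p62T352A against cont. (adjusted p = 0.0048).

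Of 12 PXR and CAR targets, 2 were higher and 5 lower in *Atg7*-KO against cont., and 4 were higher and 3 lower in *Atg7*-KO;p62T352A against *Atg7*-KO. With cont. mouse 1 left out 8 were lower in the former, and without *Atg7*-KO mouse 3 it was 3 lower in the former and 1 higher in the latter. Over all genes tested, 43.7% were called in the former comparison and 51% in the latter with all mice included. *Cyp2b10*, the usual readout of CAR, was at 4.47, 11.1 and 22.8 normalized CPM in cont., at 0.967, 1.19 and 0.640 in *Atg7*-KO and at 1.71, 6.37 and 4.90 in *Atg7*-KO;p62T352A mice. The 3 lowest were the *Atg7*-KO mice, and it fell by 3.75 in them against cont. (adjusted p = 0.00168, edgeR). *Cyp3a11*, the usual readout of PXR, fell by 1.26 (adjusted p = 0.0181), and *Slco1a4*, an uptake transporter, by 3.06 (adjusted p = 0.0059). The 2 that were higher were the exporters *Abcb1a* (3.03, adjusted p = 0.000745) and *Abcc3* (0.60, adjusted p = 0.0358). *Abcc3* was the only one of the 12 called in *Atg7*-KO;p62T352A against cont., where it was lower (-0.80, adjusted p = 0.0343, edgeR). *Cyp2b13*, which was called lower, had 0.0573 normalized CPM in cont. mouse 1 and 143 and 299 in cont. mice 2 and 3, so that its value follows the *Xist* split within cont. *Cyp3a41a* and *Cyp2b9* showed the same split and were not called. Of 6 HNF6 targets, 0 were higher and 3 lower in *Atg7*-KO against cont., and 2 were higher and 1 lower with p62T352A against *Atg7*-KO. The 3 were *Pck1*, *Ttr* and *Cyp7a1*. The counts of this list stand beside the same 43.7% and 51% of all genes tested. In the absence of cont. mouse 1, 1 was called higher in *Atg7*-KO, and without any 1 of the mice with Cre 0 were lower with p62T352A.

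**Figure D3:**
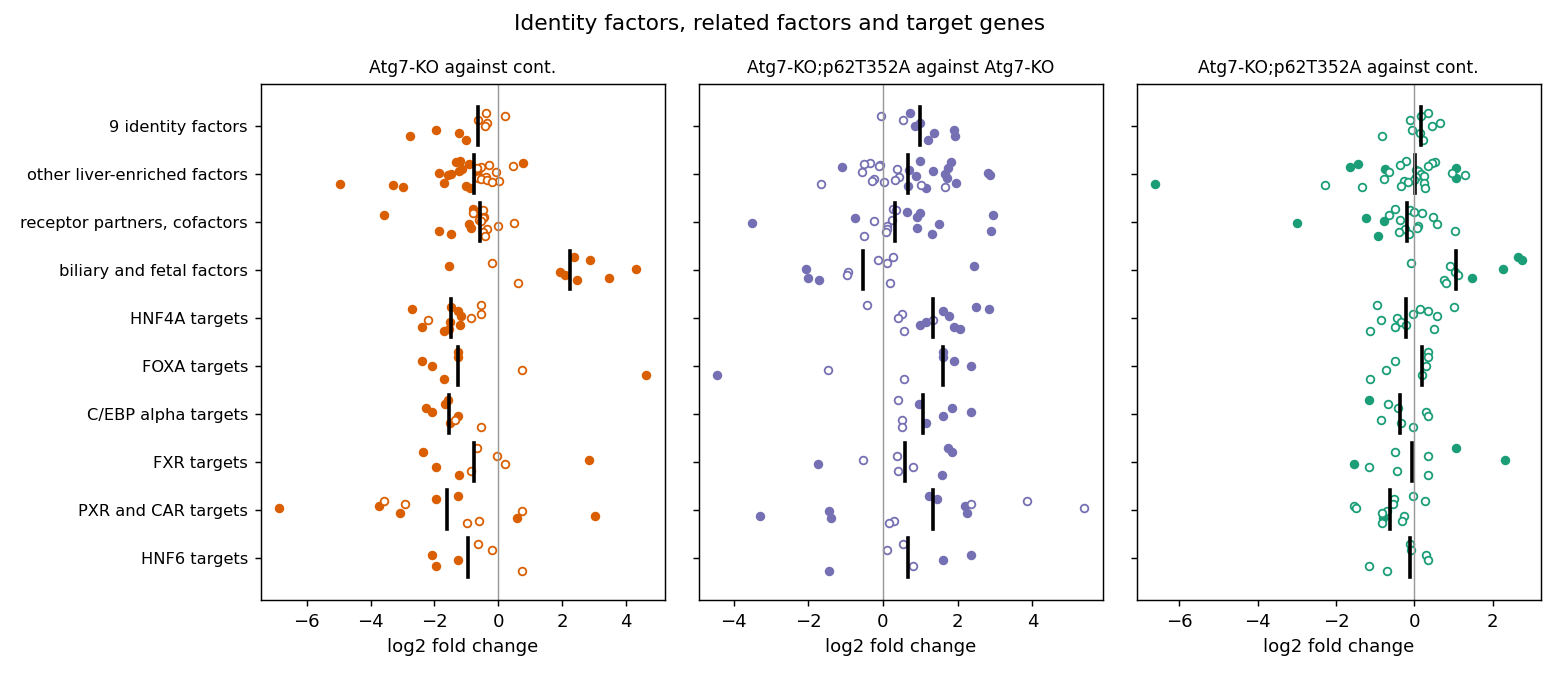
Log2 fold change (x axis) of every tested gene of 10 lists (y axis) in the 3 comparisons. Filled points were called, open points were not, and the vertical bar is the median of a list, which for the 9 identity factors is -0.64, 0.99 and 0.18. Genes in more than 1 list are drawn in each.

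The course of the 9 factors was set beside other transcription factors of the liver. Of 28 other liver-enriched factors and nuclear receptors, 1 was higher and 16 lower in *Atg7*-KO against cont., 13 were higher and 1 lower in *Atg7*-KO;p62T352A against *Atg7*-KO, and 2 were higher and 4 lower against cont. Their median log2 fold change was -0.77, 0.68 and 0.02, beside -0.64, 0.99 and 0.18 for the 9. Without cont. mouse 1, 7 were lower in *Atg7*-KO;p62T352A against cont. and 2 against *Atg7*-KO. The 1 that was higher in *Atg7*-KO was *Cebpd*, a C/EBP factor of the acute-phase response (0.80, adjusted p = 0.019, edgeR). Among genes whose mice did not overlap between both genotypes, the largest falls were those of *Tef* (-3.29, adjusted p = 0.0043) and *Nr1d1* (-2.99, adjusted p = 0.00584), both of which follow the circadian clock. *Dbp*, a clock output gene named here after its values were seen, fell by more (-4.97, adjusted p = 0.0122), with overlap. It had 0.860 normalized CPM in cont. mouse 1 and 79.8 and 193 in cont. mice 2 and 3, against 1.02 to 4.27 in *Atg7*-KO mice and 0.783 to 1.00 in *Atg7*-KO;p62T352A mice. *Tef* was at 39.1 normalized CPM in cont. mouse 1 and at 292 and 414 in cont. mice 2 and 3. It was at 19.2 to 31.6 in *Atg7*-KO mice and 33.6 to 68.1 in *Atg7*-KO;p62T352A mice. High *Dbp* and *Tef* were thus seen in cont. mice 2 and 3 only. The time of day of sampling is not given in the labels. Its part in the differences of *Atg7*-KO and *Atg7*-KO;p62T352A from cont., and in the low *Nr1i3* and *Nr1i2* levels of cont. mouse 1, was not tested.

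Among 18 nuclear receptor partners and cofactors, 0 were higher and 7 lower in *Atg7*-KO against cont., and 8 were higher and 2 lower in *Atg7*-KO;p62T352A against *Atg7*-KO. Over all genes tested, 43.7% were called in the former comparison and 51% in the latter. The cofactor count in *Atg7*-KO against cont. depended on single mice. Without cont. mouse 1 it was 1 higher and 12 lower, without *Atg7*-KO mouse 1 or 2 it was 4 lower, and with glmTreat, a test against a fold change of 1.5, 2 lower. In the latter comparison 5 were higher without *Atg7*-KO mouse 2 or 3, and 4 with glmTreat. In *Atg7*-KO against cont. *Ppargc1b*, a coactivator of metabolic genes, fell by 3.58 (adjusted p = 0.0036, edgeR), and *Ncor1*, a corepressor, by 0.91 (adjusted p = 0.0227). In *Atg7*-KO;p62T352A against cont. the cofactors called were all lower. They were *Ncoa2* (-1.22, adjusted p = 0.00426), *Ncoa6* (-0.77, adjusted p = 0.0386), *Nrip1* (-3.00, adjusted p = 0.0122) and *Carm1* (-0.93, adjusted p = 0.0386, edgeR). Of 10 biliary and fetal factors, in contrast, 7 were higher and 1 lower in *Atg7*-KO against cont., 1 was higher and 3 lower in *Atg7*-KO;p62T352A against *Atg7*-KO, and 4 were higher and 0 lower in *Atg7*-KO;p62T352A against cont. Several had few counts in cont. mice, and among genes with at least 10 counts in every mouse 3 were higher in the first comparison, 0 lower in the second and 2 higher in the third. The largest rises were those of *Elf3* (4.31, adjusted p = 2.64e-05) and *Ehf* (3.48, adjusted p = 5.43e-05), both epithelial factors of the ETS family, and the 1 lower gene was *Onecut2*. With p62T352A against *Atg7*-KO, *Elf3* (-2.05, adjusted p = 0.000342) and *Ehf* (-2.00, adjusted p = 0.000399) fell and *Onecut2* rose (2.43, adjusted p = 0.00075).

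Markers of the cell types of the liver moved with the genotypes as well. Of 9 hepatocyte markers tested, 0 were higher and 7 lower in *Atg7*-KO against cont., led by *Ass1* (log2 difference -3.33), an enzyme of the urea cycle, and *Serpina1a* (-1.88), a secreted protease inhibitor. Their summed level was 134920, 86289 and 76220 normalized CPM in cont., 41903, 42436 and 39582 in *Atg7*-KO and 118090, 130090 and 114010 in *Atg7*-KO;p62T352A mice, with *Alb* the most abundant in every mouse. All *Atg7*-KO mice were below the others. Of 9 cholangiocyte markers tested, 7 were higher and 0 lower in *Atg7*-KO against cont., or 3 higher among those with at least 10 counts in every mouse. Their sums were 71.7, 68.1 and 71.4 normalized CPM for the cont. mice, 1058, 974 and 865 for *Atg7*-KO and 213, 208 and 292 for *Atg7*-KO;p62T352A, with *Spp1*, a secreted glycoprotein of bile duct cells and macrophages, the most abundant over the 9 mice. *Spp1* rose by 4.69 in *Atg7*-KO (adjusted p = 1.4e-05, edgeR). Without *Spp1* the other 8 summed to 28.7 to 43.7 normalized CPM in cont., 91.2 to 100 in *Atg7*-KO mice and 53.9 to 78.9 in the mice with p62T352A, so that the *Atg7*-KO mean was 2.59 times that of cont. *Cftr*, a chloride channel of bile ducts, had 2, 0 and 0 counts in cont. mice, 88, 120 and 69 in *Atg7*-KO and 7, 2 and 9 in *Atg7*-KO;p62T352A mice.

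Most macrophage and stellate cell markers, and most of a joint list of lymphocyte and neutrophil markers, were called higher in *Atg7*-KO too, unlike most endothelial ones. Of 12 macrophage markers, 9 were higher and 1 lower, the rises led by *Lyz2* (2.98) and *Cd68* (2.60) and the fall that of *Timd4* (-1.31). Their sums were 542, 440 and 368 normalized CPM for cont. mice, 1565, 1538 and 1649 for *Atg7*-KO and 269, 573 and 423 for *Atg7*-KO;p62T352A, with *Clec4f* the most abundant over the 9 mice, although *Lyz2*, among others, was above it in all 3 *Atg7*-KO mice. Of 10 stellate cell and fibroblast markers, 7 were higher and 0 lower (1 lower without cont. mouse 1), led by the collagen genes *Col1a1* (4.20) and *Col3a1* (3.85), with *Dcn* the most abundant over the 9 mice, *Col3a1* being above it in *Atg7*-KO mice 2 and 3, and sums of 323, 278 and 341 in cont., 1035, 1229 and 1095 in *Atg7*-KO and 467, 403 and 694 in *Atg7*-KO;p62T352A mice. Of 8 lymphocyte and neutrophil markers, 6 were higher (3 without cont. mouse 2 or *Atg7*-KO mouse 3, and 2 among those with at least 10 counts in every mouse) and 0 lower, led by *Nkg7* (2.28) and *S100a8* (2.03), with *Ptprc* the most abundant over the 9 mice and sums of 16.3, 24.4 and 29.5 in cont., 68.7, 65.4 and 73.2 in *Atg7*-KO and 27.3, 24.5 and 25.0 in *Atg7*-KO;p62T352A mice. The 2 not called, *Cd79a* (-0.20) and *Ms4a1* (0.69), are named here after their values were seen. Of 8 endothelial markers, 3 were higher and 1 lower in *Atg7*-KO against cont., with *Lyve1* (1.57) and *Stab2* (-1.19) at the extremes, and without cont. mouse 2 it was 1 higher and 2 lower. *Stab2* was the most abundant over the 9 mice, although *Clec4g* was above it in all 3 *Atg7*-KO mice, in cont. mouse 1 and in *Atg7*-KO;p62T352A mouse 2. Their sums were 306, 353 and 321 in cont., 309, 308 and 318 in *Atg7*-KO and, below all of these, 150, 186 and 169 in *Atg7*-KO;p62T352A mice. No marker of these lists in the table was at 0 in all 3 mice of a genotype.

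**Figure D4:**
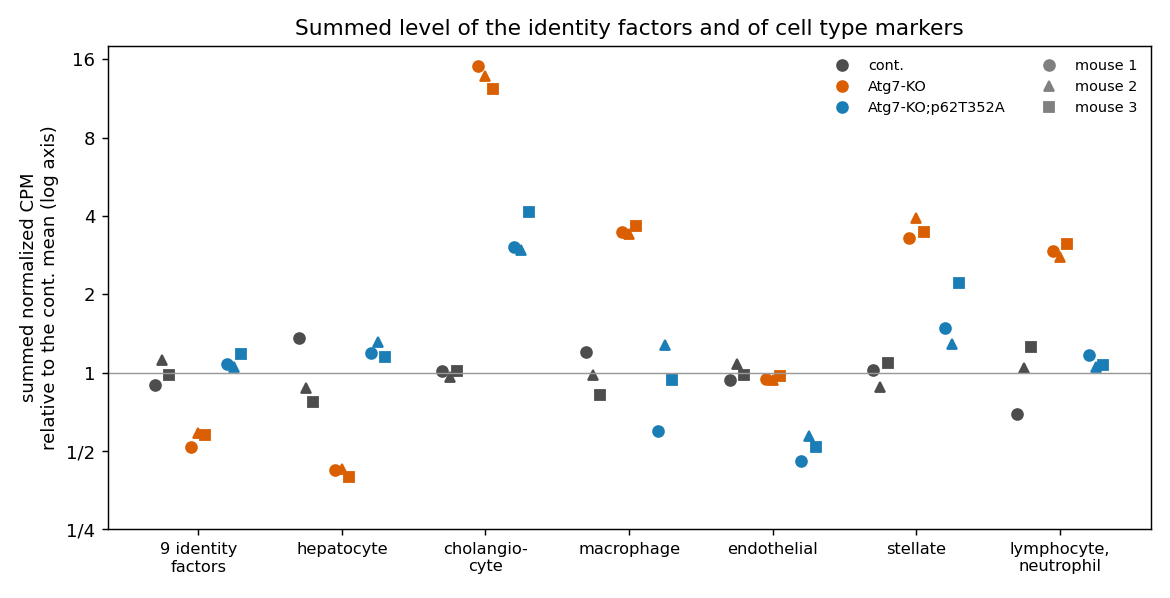
Summed normalized CPM of the 9 identity factors and of 6 lists of cell type markers (x axis) in each mouse, relative to the mean of the cont. mice (y axis, log scale). Colours give the genotype and symbols the mouse number. In *Atg7*-KO mice the identity factors sit at 0.560 and hepatocyte markers at 0.417 of the cont. mean, while cholangiocyte markers sit at 13.7 times it (2.59 times without *Spp1*). These ratios depend on the TMM scaling, whose factors were higher in all *Atg7*-KO mice than in the others.

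The summed level of the 9 factors was 1264, 1577 and 1374 normalized CPM in cont., 731, 822 and 809 in *Atg7*-KO and 1525, 1480 and 1663 in *Atg7*-KO;p62T352A mice, and *Hnf4a* was the most abundant in every mouse. For each 1000 CPM of hepatocyte markers, however, the factors parted. *Hnf4a* was at 4.38 to 6.64 in cont., 8.65 to 10.6 in *Atg7*-KO mice and 4.72 to 6.59 in *Atg7*-KO;p62T352A mice, so on this scale it was highest in *Atg7*-KO. The same held for *Cebpa* (2.23 to 2.36, 3.96 to 4.38 and 2.37 to 2.92), *Foxa1* (0.112 to 0.144, 0.329 to 0.364 and 0.104 to 0.130) and *Foxa3* (0.286 to 0.499, 0.776 to 0.847 and 0.520 to 0.582), whose *Atg7*-KO mice did not overlap with either of the other genotypes. *Nr1h4*, in contrast, was at 0.986 to 3.14 in cont., 1.19 to 1.35 in *Atg7*-KO mice and 1.32 to 1.84 in *Atg7*-KO;p62T352A mice, and *Nr1i2*, *Nr1i3*, *Foxa2* and *Onecut1* likewise overlapped between cont. and *Atg7*-KO. For the 3 receptors the overlap came from cont. mouse 1 alone. Cont. mice 2 and 3 were at 3.14 and 2.87 (*Nr1h4*), 2.07 and 1.59 (*Nr1i2*) and 2.93 and 4.6 (*Nr1i3*), above every *Atg7*-KO mouse. Most of this denominator is *Alb* mRNA, which itself fell in *Atg7*-KO, and no test was made on the ratio. The part of cell type makeup in the levels of the 9 factors was not tested.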

How the data were processed

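The authors made single-end reads of 75 bases from poly(A) RNA of liver. The table used here holds 9 mice, and the 3 p62T352A mice that the labels also list were not analysed here. Per the submitters' processing notes and the methods, these were trimmed (Trim Galore), aligned to mm10 (STAR) and quantified (RSEM). Versions, annotation and strand setting are not given in the sources used here. The labels name RNeasy and the methods TRIzol for the extraction. Values in the deposited table are expected counts from RSEM, 1 per gene and mouse and not scaled by depth, and were rounded here.

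Columns were assigned by genotype and mouse number in the labels, and 0 columns were left unmapped. Genes were kept by filterByExpr, scaled by TMM and fitted over 3 genotypes in 1 quasi-likelihood model (edgeR 4.0.16, R 4.3.3), with Benjamini-Hochberg adjustment over all genes tested. DESeq2 1.42.0, limma 3.58.1 and, for sequences and figures, Python 3.11.15, numpy 2.4.6 and matplotlib 3.10.9 were also used. Log2 CPM had a prior count of 2. The steps were tested on simulated data. The p-values weigh each difference between genotypes against the spread between mice within genotypes.

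Some genes are not reported here. The 9 genes and all lists were chosen with earlier results of these data known. Named from the lists of other factors and markers were the 2 largest called rises and falls in *Atg7*-KO against cont. with a mean of at least 1 normalized CPM and no overlap, and the most abundant marker. Gene models came from GENCODE vM21 (GRCm38), and likeness used genes of at least 10 normalized CPM. Alternatives were DESeq2, its size factors, upper-quartile scaling, the mouse number as a block, no filter, a minimum of 10 counts per mouse, *Xist* as a term, 20 abundant genes left out, FDR alone, glmTreat, each mouse left out, and, added after seeing the data, length and GC offsets.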

Additional observations from a re-analysis of the deposited data

How the results depend on the processing

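The calls of *Nr1h4* and *Nr1i3* in *Atg7*-KO against cont., and those of *Nr1h4*, *Nr1i2*, *Nr1i3* and *Onecut1* in *Atg7*-KO;p62T352A against *Atg7*-KO, held in 22 of 22 alternatives. The number of identity factors called in *Atg7*-KO against cont. (4) was 2 with glmTreat, which tests against a fold change of 1.5, and 2 to 4 when single mice or all mice numbered 1 were left out, the lowest without *Atg7*-KO mouse 1. The number called with p62T352A against *Atg7*-KO (7) was 4 with glmTreat and 5 to 8 with mice left out. Against cont. (0) it was 0 to 3 with mice left out, the 3 resting on the absence of cont. mouse 1. Over all genes tested, *Atg7*-KO against cont. gave 6080 calls, 3855 with glmTreat and 4587 to 7960 with mice left out. *Atg7*-KO;p62T352A against *Atg7*-KO gave 7095, 4718 with glmTreat and 5652 to 8142 with mice left out. *Atg7*-KO;p62T352A against cont. gave 1613, 253 with glmTreat and 435 to 3245 with mice left out, the fewest without *Atg7*-KO;p62T352A mouse 3 and the most without cont. mouse 1. The causes were not tested.

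The mouse numbers 1, 2 and 3 occur in every genotype. Deviations from the genotype means correlated by 0.146 on average over 9 pairs of mice with the same number (-0.202 to 0.321) and by -0.0705 over 18 other pairs (-0.34 to 0.176), and 6 of 9 mice correlated best with a mouse of their own number, a hint of something shared. The numbers were not taken as pairing the mice, because the labels tie them to no shared source and the 3 pairs of mice numbered 2 had 0.0926, -0.202 and 0.0187, not over 0.1 as required of every pair. In a fit that took the mouse number as replicate block, 4, 7 and 0 identity factors were called in the 3 comparisons, against 41.3%, 50.2% and 7.1% of all genes tested, the last being 988 genes. With the block together with length and GC offsets, 4 factors were called with p62T352A against *Atg7*-KO, without *Hnf4a*, *Foxa3* and *Cebpa*, against 49.5% of all genes tested, and 895 genes (6.68%) were called against cont. With the offsets alone *Foxa3* (0.85, adjusted p = 0.0723) and *Cebpa* (0.59, adjusted p = 0.158) lost that call.

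Upper-quartile scaling shifted the median over all genes (log2) from -0.03 to 0.08 in *Atg7*-KO against cont. and from 0.00 to -0.14 in *Atg7*-KO;p62T352A against *Atg7*-KO, kept the direction of the 7 and the 4 calls, and ended that of *Onecut1* in the former. The share of called genes that were higher in the latter was 48.5%, or 41.2% with this scaling. The ratio of the highest to the lowest level per kilobase, *Hnf4a* to *Onecut1*, was 294.2 in cont. with the median transcript and 170.2 with the longest.

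Some differences that were not called changed sign when mice were left out. In *Atg7*-KO against cont. *Foxa3* ranged from -0.66 without cont. mouse 3 to 0.052 without cont. mouse 1 (0.014 without all mice numbered 1). In *Atg7*-KO;p62T352A against *Atg7*-KO *Foxa1* ranged from -0.15 to 0.055. In *Atg7*-KO;p62T352A against cont. *Foxa1* ranged from -0.015 to 0.38, *Foxa2* from -0.42 to 0.17, *Nr1h4* from -0.36 to 0.12, *Nr1i2* from -0.18 to 0.47 and *Onecut1* from -0.11 to 0.62. *Onecut1* had the fewest counts of the 9, with 23 to 82 per mouse.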
